A study of Arabidopsis thaliana with 18 samples.

Results

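The comparison described here sets the FACT mutant *ssrp1-2* against wild type, with both grown at 22 °C, and it rests on 4 of the 18 samples of the series. *Arabidopsis thaliana* seedlings of the Col-0 wild type and of the *ssrp1-2* genotype were harvested after 14 days on plates, with 16 h of light at 22 °C and nights at 18 °C, and no further treatment. TIF-seq, which reads the capped 5′ end and the polyadenylated 3′ end of the same RNA molecule, was run on 2 libraries of each genotype. The authors pooled the 2 libraries before they joined read pairs with similar ends into TIF-clusters, so there is 1 list per genotype. No value below therefore has a replicate check, no test between genotypes was possible, and intervals cover the counting of read pairs only. The lists of *spt16-1*, the mutant of the other FACT subunit, and of *hen2-2*, a mutant of an exosome-associated RNA helicase, come from seedlings grown in the same way and are used only to show what other single lists hold.

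FACT is a histone chaperone made of SSRP1 and SPT16. It travels with RNA polymerase II (RNAPII), loosens nucleosomes ahead of it and restores them behind it. In yeast and in plants, FACT mutants are known for RNAPII initiation inside genes, where nucleosomes normally cover start-like sequences. Such an internal start gives an RNA that lacks the beginning of the coding sequence.

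In wild type, 843121 read pairs fell into 45707 TIF-clusters, and in *ssrp1-2* 705245 fell into 40940. Every listed TIF-cluster has at least 3 read pairs, so a gene absent from a list may still be transcribed. In the *spt16-1* and *hen2-2* lists there were 924907 and 794299 read pairs. The median TIF-cluster spanned 1735 nt of the genome, introns included, in wild type, 1832 nt in *ssrp1-2*, 1842 nt in *spt16-1* and 1721 nt in *hen2-2*. Of 26475 coding genes that overlap no other coding gene on their strand, 10285 had a TIF-cluster in wild type and 10099 in *ssrp1-2*. Levels are given as RPM, the read pairs of a gene per 1000000 read pairs of the list. These are RNAs of whole seedlings, in which fewer cells of a type and less RNA per cell cannot be told apart. The 3 green-tissue markers *CAB1*, *RBCS1A* and *RCA* together were at 11236 RPM in wild type and 6402 RPM in *ssrp1-2*. *CAB1* itself was at 4029 and 3694 RPM, and the 20 light-harvesting genes together were at 103931 RPM in wild type and 106129 RPM in *ssrp1-2*, so the green genes did not move together. None of the 3 seed storage markers was listed in either list. The summed level of the root markers *PYK10* and *TIP2;3* was 4071 RPM in wild type and 3453 RPM in *ssrp1-2*. The log2 ratio of *ssrp1-2* to wild type was -0.22 at *PYK10* and -1.01 at *TIP2;3*, which is just past the 2-fold limit used below. With the wild-type list thinned to the depth of *ssrp1-2*, *TIP2;3* had -0.85, so its call did not hold. The part of tissue composition in the results below was not tested.

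The mutated gene was at the edge of detection. *SSRP1* (AT3G28730, chr3:10784888-10788729 on TAIR10, plus strand) had 5 read pairs in wild type, none in *ssrp1-2*, 27 in *spt16-1* and 3 in *hen2-2*. Its absence from the *ssrp1-2* list is a weak check of the label, because wild type and *hen2-2* lay close to the limit of 3 read pairs. *SPT16* (AT4G10710), which encodes the partner subunit, had 30 read pairs in wild type, 7 in *ssrp1-2*, 31 in *spt16-1* and 7 in *hen2-2*. The 2 low lists were thus *ssrp1-2* and *hen2-2*. These counts were under the minimum of 40 read pairs over the 2 compared lists that was set for the fold counts.

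Among 8699 genes present in both lists, 4502 had at least 40 read pairs over both. Of these, 465 (10.3%) were at least 2-fold higher in *ssrp1-2* and 408 (9.06%) were at least 2-fold lower. The median log2 ratio of *ssrp1-2* to wild type was 0.07, and 90% of the genes lay between -1.35 and 1.39. At least 4-fold differences were found at 70 genes in the higher direction and at 85 in the lower. All 873 genes past the 2-fold limit had a 95% counting interval of the ratio that left out 1, but so did 43.4% of all 4502 genes. The error between libraries, which these intervals do not cover, could not be estimated. At the limit itself, *LTL1*, with 82 read pairs in *ssrp1-2* and 49 in wild type, was counted as higher at a log2 ratio of 1.00046, and AT4G14270, with 184 and 110, was left out at 0.999817.

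The same count over the other single lists gives the scale of these numbers. In *spt16-1* against the same wild-type list, 10.5% of 4945 genes were at least 2-fold higher and 6.35% lower. For *hen2-2* the shares were 9.00% and 6.86% of 4724 genes. The 3 comparisons share the wild-type list, so a gene with an unusual wild-type value enters each of them. Therefore every gene with at least 80 read pairs over the 4 lists and present in each was also set against all of the other 3 lists, a comparison added after the data were seen. Of 4707 such genes, *ssrp1-2* was at least 2-fold above the highest other list at 31 (0.659%) and at least 2-fold below the lowest at 135 (2.87%). Wild type stood apart in this way at 1.13% of the genes above and 3.29% below. The shares were 0.701% and 1.57% for *spt16-1*, and 1.02% and 2.19% for *hen2-2*. No list thus stood apart at more than 3.29% of the genes in a direction.

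**Figure D1:**
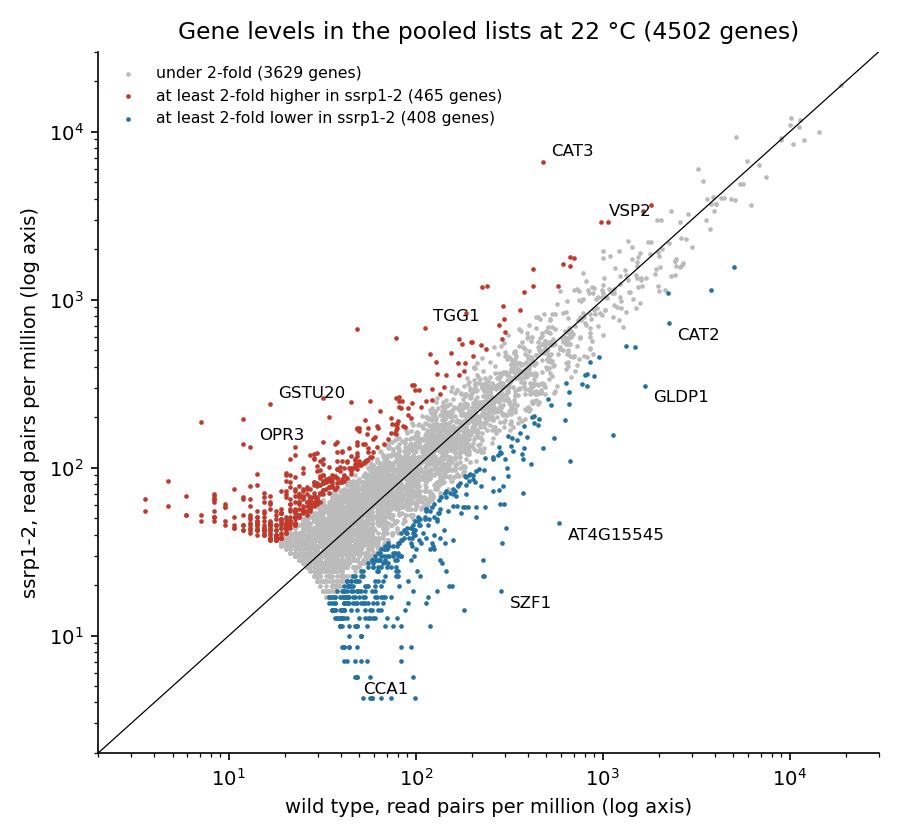
Level of each of 4502 genes in the pooled wild-type list (horizontal axis) and the pooled *ssrp1-2* list (vertical axis), in RPM on log axes, with 1 point per gene and the line of equal levels. The 465 higher and 408 lower genes lie on both sides of the line at all levels, and *CAT3* stands out at the high end with 478 RPM in wild type and 6603 RPM in *ssrp1-2*.

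The 10 genes with the highest ratios have different functions. *CAT3* (chr1:7142972-7146540, plus strand), which encodes a catalase that breaks down hydrogen peroxide, was at 478 RPM in wild type, 6603 RPM in *ssrp1-2*, 496 RPM in *spt16-1* and 3521 RPM in *hen2-2*. Wild type and *spt16-1* were alike and the other lists were far above them. The ratio of *ssrp1-2* to wild type was 13.8 (95% counting interval 12.5 to 15.3). A single TIF-cluster that starts 59 nt before the coding sequence held 4135 of the 4657 read pairs in *ssrp1-2*, and without the largest TIF-cluster of each list the log2 ratio went from 3.79 to 1.79. *CAT3* is a case in which the same start carried few read pairs in wild type, where 318 of 403 began within 50 nt of that position.

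*GSTU20* (chr1:29484120-29485389, minus strand) encodes a glutathione S-transferase. Its level was 16.6 RPM in wild type, 240 RPM in *ssrp1-2*, 14.1 RPM in *spt16-1* and 11.3 RPM in *hen2-2*, so that *ssrp1-2* was the only high list. In *ssrp1-2*, 123 of 169 read pairs started 76 nt before the coding sequence, and the wild-type list held 8 and 6 read pairs starting 44 and 21 nt before it. The ratio was 14.4 (8.37 to 26.96). *TGG1* (chr5:9079452-9082384, minus strand), a myrosinase that splits glucosinolates, was at 111 RPM in wild type, 682 RPM in *ssrp1-2*, 187 RPM in *spt16-1* and 167 RPM in *hen2-2*. Here too the *ssrp1-2* list stood apart, with a ratio to wild type of 6.12 (4.90 to 7.71).

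For the other genes at the high end the wild-type list was the low one. *OPR3*, which encodes the reductase of jasmonate synthesis in peroxisomes, was at 13.0 RPM in wild type, 133 RPM in *ssrp1-2*, 163 RPM in *spt16-1* and 89.4 RPM in *hen2-2*. *XTH24*, an enzyme that cuts and rejoins xyloglucan in cell walls, was at 78.3, 593, 900 and 208 RPM in the same order. In both genes *spt16-1* was higher than *ssrp1-2*. AT1G04800, annotated as a glycine-rich protein, was at 48.6 RPM in wild type against 672 RPM in *ssrp1-2*, 577 RPM in *spt16-1* and 305 RPM in *hen2-2*. AT5G18600, of the thioredoxin superfamily, and AT5G03545, which is annotated as expressed under phosphate starvation, had ratios of 16.4 (8.64 to 34.9) and 8.10 (5.39 to 12.6), with wild type again lowest of the 4 lists. The largest ratio, 26.3 (11.8 to 73.0), belonged to AT4G23820, a pectin lyase-like protein, from 6 read pairs in wild type and 132 in *ssrp1-2*. Its level in *hen2-2* was 91.9 RPM and in *spt16-1* 22.7 RPM.

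Among the 10 genes with the lowest ratios, wild type was the only high list at some and *ssrp1-2* the only low list at others. *SZF1* (AT3G55980, chr3:20776220-20778952, plus strand), which encodes a zinc finger protein induced by salt, was at 287 RPM in wild type, 18.4 RPM in *ssrp1-2*, 46.5 RPM in *spt16-1* and 34.0 RPM in *hen2-2*. The level was 15.6-fold lower in *ssrp1-2* than in wild type (8.94 to 29.7), and wild type was the only high list. All of its read pairs began inside the annotated coding span. AT1G07135, a glycine-rich protein, and AT1G32920, of unknown function, were also highest in wild type, with 181 and 288 RPM there and at most 27.7 and 91.9 RPM in the other lists. *SQP1*, annotated as an oxidoreductase, was at 229 RPM in wild type and at 28.4 RPM in *ssrp1-2*. AT5G38980 was at 151 RPM in wild type at 19.9 RPM in *ssrp1-2*, 56.2 RPM in *spt16-1* and 17.6 RPM in *hen2-2*.

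At other genes of the low end, *ssrp1-2* was the lowest list, and at AT4G15545, *BZIP53* and *EXT13* it was the only low list. At *NEET* and AT3G56290 another mutant list was also at least 2-fold below wild type. AT4G15545 (chr4:8875656-8877799, plus strand), annotated as a PH-response transcription factor, was at 586 RPM in wild type, 527 RPM in *spt16-1*, 522 RPM in *hen2-2* and 46.8 RPM in *ssrp1-2*. The 3 other lists differed little among themselves, and *ssrp1-2* was 12.5-fold below wild type (8.80 to 18.4). *BZIP53*, a bZIP transcription factor, was at 232, 168 and 161 RPM in wild type, *spt16-1* and *hen2-2* and at 22.7 RPM in *ssrp1-2*. *EXT13*, an extensin of the cell wall, was at 155, 114 and 161 RPM in the 3 lists and at 19.9 RPM in *ssrp1-2*. *NEET*, an iron-sulphur protein, was at 230, 128 and 88.1 RPM and at 22.7 RPM in *ssrp1-2*. For AT3G56290, annotated as a potassium transporter, the levels were 120, 51.9 and 83.1 RPM in those lists and 11.3 RPM in *ssrp1-2*. By the comparison with all 3 lists, AT4G15545, *BZIP53*, *OEP16-3* and *EXT13* had the largest gaps on the low side, at 11.2-, 7.10-, 6.20- and 5.72-fold below the nearest list. On the high side these were *GSTU20*, *STR16*, *TGG1* and *VSP1*, at 14.4-, 5.44-, 3.65- and 3.28-fold above it. *STR16*, a sulfurtransferase, was at 45.1 RPM in wild type, 245 RPM in *ssrp1-2*, 17.3 RPM in *spt16-1* and 15.1 RPM in *hen2-2*.

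**Figure D2:**
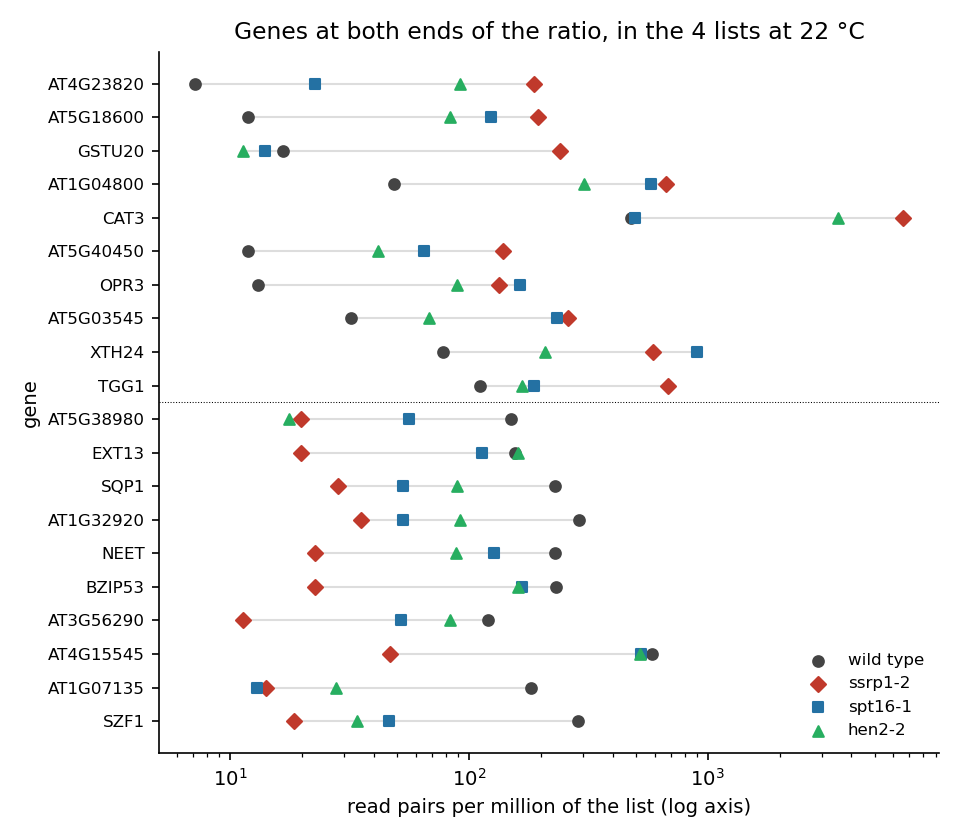
Levels of the 10 genes with the highest (above the dotted line) and the 10 with the lowest ratio of *ssrp1-2* to wild type, in RPM on a log axis, with 1 symbol for each pooled list at 22 °C. *GSTU20* and *TGG1* are high in *ssrp1-2* alone, AT4G15545 and *BZIP53* are low in *ssrp1-2* alone, and at *OPR3* or *SZF1* it is the wild-type list that stands apart.

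Genes listed for a single genotype were mostly rare. TIF-clusters were found only in *ssrp1-2* for 1400 genes and only in wild type for 1586, and the median was 4 read pairs in both sets. At least 20 read pairs were reached by 31 of the former and 74 of the latter. *MEE59* had 229 read pairs in *ssrp1-2*, all in a single TIF-cluster, none in wild type, 30 in *spt16-1* and 175 in *hen2-2*. *AK3*, which encodes an aspartate kinase of amino acid synthesis, had 83 read pairs in *ssrp1-2*, 72 in *spt16-1* and 28 in *hen2-2*, and *HGO*, an enzyme of tyrosine breakdown, had 50, 49 and 26. Both were unlisted in wild type alone. The remaining genes of this kind were AT1G54010, with 72 read pairs in *ssrp1-2*, and AT2G39420, with 44, and both were also listed in *spt16-1* and *hen2-2*.

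Of the genes listed in wild type and not in *ssrp1-2*, AT1G13650 had the most read pairs, at 103 in wild type, 47 in *spt16-1* and 54 in *hen2-2*. *AAE7*, which activates acetate, had 83, 28 and 41 read pairs in these lists, and *MYB70*, a transcription factor, had 70, 31 and 24. These were unlisted in *ssrp1-2* alone. *RAB1C*, a small GTPase of membrane traffic, had 75 read pairs in wild type against 5 in *spt16-1* and 11 in *hen2-2*, and AT2G15020 had 74 against 3 and 3. For the last genes all 3 mutant lists were thus low. Since TIF-clusters under 3 read pairs are not listed, no fold change is given for any gene with a single list.

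The gene lists used from here on were chosen with earlier results of these data known, so their counts support nothing by themselves. Several jasmonate and wounding genes were higher in *ssrp1-2*. Of 15 listed members, 10 could be measured, 5 were at least 2-fold higher, 1 was lower, and the median log2 ratio was 0.72, against 0.07 and 10.3% higher over all genes measured. *LOX2*, *AOC2* and *OPR3* encode consecutive or neighbouring steps of jasmonate synthesis, and *VSP1* and *VSP2* encode vegetative storage proteins that jasmonate induces. *VSP2* was at 974 RPM in wild type, 2894 RPM in *ssrp1-2*, 1018 RPM in *spt16-1* and 516 RPM in *hen2-2*. Only the *ssrp1-2* list was high. *VSP1* had the same order at 128, 425, 130 and 96.9 RPM, and the ratios were 2.97 (2.74 to 3.23) for *VSP2* and 3.32 (2.66 to 4.18) for *VSP1*. *LOX2* had 11 read pairs in wild type, 36 in *ssrp1-2* and 21 in both other lists. *AOC2* had 43 read pairs in wild type and 73 in *ssrp1-2*, which are 104 RPM, near the 96.2 RPM of *spt16-1*. *JAZ6*, a repressor of jasmonate responses, was the lower member, at 114 RPM in wild type and 56.7 RPM in *ssrp1-2*. Scaled by the median gene, *AOC2* had a log2 ratio of 0.95, and at equal depth *JAZ6* had -0.93, so neither call held. *AOS* and *JAZ1* had log2 ratios of 0.17 and -0.10. Unlisted in wild type, *AOC1* had 22 and *MYC2* 10 read pairs in *ssrp1-2*.

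Glucosinolate genes gave the same count, with 5 of the 10 measured among 18 listed members higher, 1 lower and a median log2 ratio of 0.81. Over all genes measured, 10.3% were higher and 9.06% lower. Glucosinolates are sulphur-rich defence compounds of the cabbage family that myrosinases activate on wounding. The higher members were the myrosinase genes *TGG1* and *TGG2*, *ESP*, whose product steers the breakdown of glucosinolates to nitriles, and *MAM1* and *BCAT4*, which act in the chain elongation of methionine. *TGG2* was at 426 RPM in wild type, 1201 RPM in *ssrp1-2*, 159 RPM in *spt16-1* and 45.3 RPM in *hen2-2*. A single TIF-cluster held 641 of the 847 read pairs in *ssrp1-2*, and without the largest TIF-cluster of each list its log2 ratio was 0.44 instead of 1.496. In both lists all of its read pairs began after the first annotated coding base. *ESP* was at the limit, with a log2 ratio of 1.01 that became 0.93 when scaled by the median gene. *MAM1* was at 9.49 RPM in wild type, 58.1 RPM in *ssrp1-2*, 36.8 RPM in *spt16-1* and 290 RPM in *hen2-2*, so wild type was the low list here. *CYP79F1*, the first enzyme of the core pathway from methionine, was lower, at 224 RPM in wild type and 78.0 RPM in *ssrp1-2*, but its log2 ratio without the largest TIF-clusters was -0.95, short of the limit.

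Genes of cold and abscisic acid responses were split. Of the 9 measured members, *COR15B*, *ERD10* and *KIN2*, which encode small protective proteins, were higher (33.3%) and *KIN1* was lower (11.1%). Over all genes measured the shares were 10.3% and 9.06%. The median log2 ratio of the list was 0.51. *ERD10* was at 171 RPM in wild type, 583 RPM in *ssrp1-2*, 725 RPM in *spt16-1* and 526 RPM in *hen2-2*. *KIN2* was at 55.7 RPM in wild type and 173 RPM in *ssrp1-2*, while its neighbour *KIN1* was at 75.9 RPM and 29.8 RPM. The opposite ratios of these near-identical neighbours rest on reads that may not always be told apart. Among 7 measured genes of H3.3, H2A.Z and linker histones, *HIS1-3*, a linker histone variant induced by drought, was at 29.7 RPM in wild type, 122 RPM in *ssrp1-2*, 146 RPM in *spt16-1* and 30.2 RPM in *hen2-2*. It was high in the lists of both FACT mutants, and the other 6 had log2 ratios between -0.29 and 0.42.

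Clock genes went in different directions. *CCA1*, a transcription factor of the morning, had 40 read pairs in wild type, 4 in *ssrp1-2*, 41 in *spt16-1* and 54 in *hen2-2*. *PRR9*, another gene of the morning, had 29, 0, 5 and 4 read pairs in this order. AT4G33980 of the same gene list had 0, 34, 9 and 0. The measured members *PRR5*, *TOC1* and *ELF4* had log2 ratios of 0.50, 0.93 and 0.06. *GRP7*, which encodes an RNA-binding protein under clock control, was at 1064 RPM in wild type and 2890 RPM in *ssrp1-2*, with a ratio of 2.72 (2.51 to 2.94), and its paralogue AT4G39260 was 2.56-fold lower (2.21 to 2.96), with a log2 ratio of -0.93 without the largest TIF-clusters. Of 6 measured clock genes, 1 was higher and 2 were lower, against 10.3% and 9.06% of all genes measured. The hour of harvest of each library was not given in the sources used here, and its part in these values was not tested. Of 3 measured flowering genes 1 was higher, against 10.3% of all genes measured. This was *MAF1*, a repressor of flowering, at 23.7 RPM in wild type and 62.4 RPM in *ssrp1-2*. *SVP* had a log2 ratio of 0.78 and *FLC* was unlisted in every list.

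Photosynthesis genes were mostly near equal levels. All 20 light-harvesting genes were measured. The median log2 ratio was -0.12, none was 2-fold higher and 3 were lower, against 9.06% lower over all genes measured. *LHCB4.3* was at 66.4 RPM in wild type and 17.0 RPM in *ssrp1-2*, and *LHCB2.3* was at 527 and 235 RPM. *CAB2* was just past the limit at 2.03-fold lower (1.87 to 2.21), and counted over TIF-clusters that span the coding sequence its log2 ratio was -0.23, so this call did not hold. The most abundant member, *LHCB6*, had 15940 read pairs in wild type and 13380 in *ssrp1-2*, a log2 ratio of 0.01. Among the Rubisco genes, *RBCS1A*, a small subunit, was at 5048 RPM in wild type, 1563 RPM in *ssrp1-2*, 2339 RPM in *spt16-1* and 5664 RPM in *hen2-2*. Its level was low in both FACT mutants. The 3 other small subunit genes had log2 ratios of -0.52, -0.09 and -0.08, and *RCA*, the activase, -0.91. These families hold near-identical copies, and the counting of reads may split or drop them.

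Of 14 flavonoid genes, 2 could be measured, with 1 of them lower and none higher, against 9.06% and 10.3% of all genes measured. *TTG1*, a regulator of the pathway, had a log2 ratio of 0.52. *TT4*, which encodes chalcone synthase at the entry of the flavonoid pathway, was at 313 RPM in wild type, 89.3 RPM in *ssrp1-2*, 104 RPM in *spt16-1* and 210 RPM in *hen2-2*. *TT5* and *F3H*, the next steps, each had 27 read pairs in wild type and had 4 and 5 in *ssrp1-2*, below the minimum for a fold count. All 6 measured chaperone genes had negative log2 ratios, from -1.73 to -0.29. Of these, 1 (16.7%) was at least 2-fold lower, against 9.06% of all genes measured. This gene, *HSP70*, was at 98.4 RPM in wild type, 29.8 RPM in *ssrp1-2*, 179 RPM in *spt16-1* and 161 RPM in *hen2-2*. Of 30 measured genes for ribosomal proteins, none was 2-fold higher and 2 were lower, *RPS15A* and *RPS18C*, or 6.67% against 9.06% of all genes measured, and the median log2 ratio was -0.23. Without the largest TIF-clusters the log2 ratio of *RPS18C* was -0.46. Their transcripts are short. Among the 901 genes with the shortest transcripts, up to 1027 nt, the median log2 ratio was -0.16, 5.88% were higher and 13.3% lower, whereas the medians of the longer length classes of equal size lay between 0.11 and 0.15. The part of transcript length in the ribosomal protein values was not tested.

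The genes for the transcription machinery itself were too rare for most fold counts. Of 12 genes for FACT, elongation factors and RNAPII in the gene set, 3 could be measured. Of these 1 was lower, against 9.06% of all genes measured. This was *TFIIS*, whose product restarts stalled RNAPII, at 35 read pairs in wild type and 12 in *ssrp1-2*. The counting interval of its 2.44-fold difference ran from 1.24 to 5.16. *GTA2*, a subunit of the elongation factor SPT4/SPT5, had 137 and 70 read pairs. The chromatin proteins *HMGB1*, *HMGB2* and *HMGB3*, which are related to SSRP1 by their DNA-binding box, had log2 ratios of 0.35, 0.73 and 0.26. None of the 5 defence genes could be measured, and of them *PR5* alone was listed, with 11 read pairs in wild type.

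**Figure D3:**
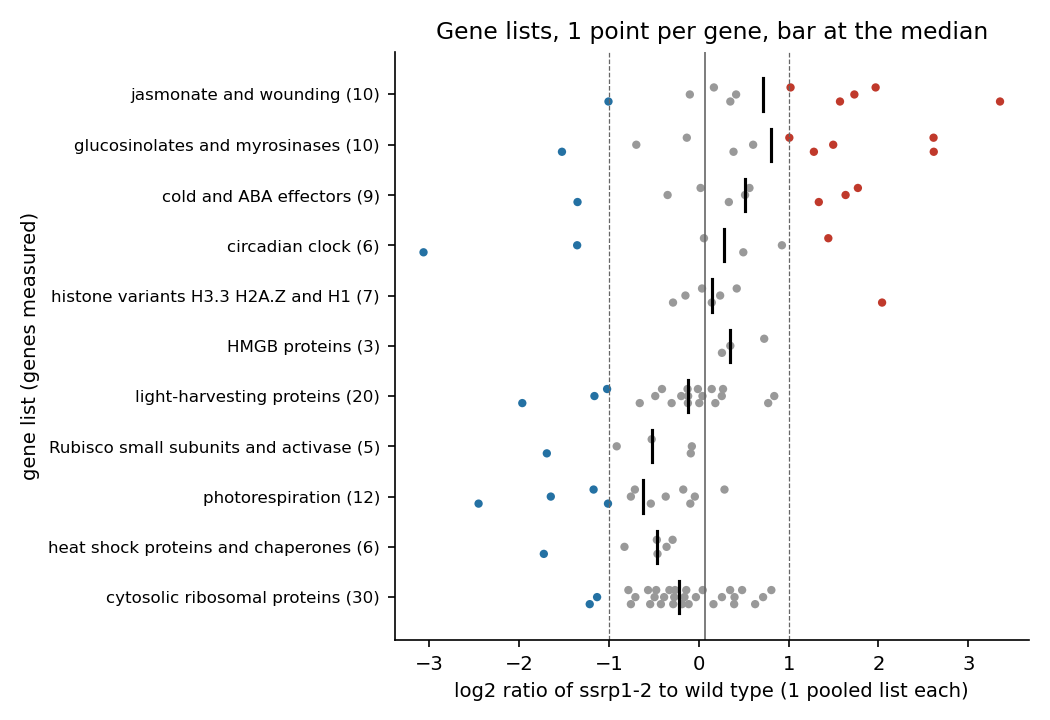
The log2 ratio of *ssrp1-2* to wild type for each measured gene of 11 lists, with 1 point per gene, a bar at the median of the list, dashed lines at the 2-fold limits and a solid line at 0.07, the median of all genes. The photorespiration list was drawn up after the values were seen, and the other lists were chosen with earlier results of these data known. Jasmonate and glucosinolate genes have 5 of 10 members past the upper limit, and most of the 20 light-harvesting genes lie between the limits.

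The other question was where RNAs began inside coding sequences. Of 38996 TIF-clusters of *ssrp1-2* assigned to a gene, 5658 started inside the coding sequence, or 14.5% (95% Wilson interval 14.2 to 14.9), at 1451 genes. In wild type these were 7358 of 43404, or 17.0% (16.6 to 17.3), at 1516 genes. The shares were 15.1% in *spt16-1* and 15.7% in *hen2-2*, and *ssrp1-2* thus had the lowest share of the 4 lists. Wild type held 88314 read pairs in such TIF-clusters and *ssrp1-2* 54058. The authors kept only starts that TSS-seq also found, and whether 1 set of TSSs served every genotype is not given in the sources used here, so its part in these shares and in the new starts below was not tested.

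A start was called new when no wild-type TIF-cluster on the strand had its 5′ end within 50 nt. This was so for 1070 TIF-clusters of *ssrp1-2*, which are 18.9% (17.9 to 19.95) of its internal starts, at 689 genes and with 4719 read pairs. The search in the other direction found 1527 wild-type starts without an *ssrp1-2* 5′ end within 50 nt, or 20.8% (19.8 to 21.7), at 806 genes and with 7519 read pairs. With the wild-type list thinned to the depth of *ssrp1-2*, the counts became 1176 new and 1231 in the mirror direction, or 20.8% and 18.9% of the internal starts. The order of the shares thus turned with the depth. Any pair of these lists gave such starts: 15.9% of *ssrp1-2* starts had no *spt16-1* 5′ end within 50 nt, 14.9% had no *hen2-2* 5′ end, and 18.1% of *spt16-1* starts and 22.3% of *hen2-2* starts had none in wild type.

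New starts were weak. Their median was 4 read pairs and the largest had 24, whereas starts shared with wild type reached 2288. At least 5 read pairs were found at 330 of them and at least 10 at 39, against 614 and 94 of the mirror set. At 485 of the 689 genes there was a single new TIF-cluster. For 288 of the genes wild type had RNAs over the whole coding sequence and no internal start, and for 94 it had no TIF-cluster at all. Near the limit of 50 nt, 440 *ssrp1-2* starts lay 21 to 50 nt from a wild-type 5′ end and 223 lay 51 to 100 nt away, while 473 were over 500 nt away.

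The new starts lay nearer to the coding start than the mirror set. Their median position was at 48.4% of the coding span, counted from its first base, and that of the mirror set was at 64.3%. The starts that both lists share differed in the same direction, with medians of 38.9% in *ssrp1-2* and 47.3% in wild type, so that this was not particular to the new starts. In the last 20% of the span were 22.5% (20.1 to 25.1) of the new starts and 33.7% (31.3 to 36.1) of the mirror set. Between 30% and 60% of the span, a stretch singled out after the values were seen, each successive 10% of the span held 8.50%, 8.97% and 9.81% of the new starts, 5.501%, 5.17% and 6.94% of the mirror set and 5.41%, 5.32% and 6.28% of the *ssrp1-2* starts that wild type shares. The TIF-clusters of new starts accordingly covered longer stretches of the genome, introns included, with a median of 1028 nt. The median was 595 nt for the mirror set, 761 nt for the shared starts of *ssrp1-2* and 644 nt for those of wild type. The length of the spliced RNAs was not measured. TIF-clusters of the whole *ssrp1-2* list were also longer than those of wild type, by the medians given above, and the part of this in the position of the starts was not tested. Within 100 nt of the coding start lay 16.9% of the new and 28.3% of the shared starts of *ssrp1-2*. In wild type the shares were 13.4% of the mirror set and 25.6% of the shared starts. A start within 50 nt of a 5′ end of the other list is left out of the new and mirror sets, also where that end lies upstream of the coding sequence. The lower shares of these sets near the coding start are thus favoured by the definition, and no conclusion is drawn from them.

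The RNAs from new starts had ordinary 3′ ends. They reached the end of the coding sequence in 97.6% (96.5 to 98.3) of cases. Where the gene also had an RNA over the whole coding sequence in *ssrp1-2*, as at 908 new starts, the 3′ end lay within 50 nt of one of its 3′ ends in 97.0%, at a median distance of 2 nt. In the mirror set this share was 96.9%. Annotated exons held 96.8% of the new 5′ ends, and 2.99% (2.13 to 4.19) lay within 2 nt of the first base of an exon, as did 3.08% in the mirror set. The letters TATAAA on the strand of the gene, in the window 60 to 10 nt upstream, preceded 2.27% (1.53 to 3.36) of 1057 new start positions, 1.62% of the mirror set and 4.41% (3.83 to 5.07) of the *ssrp1-2* starts that wild type shares. At the most used whole-coding-sequence start of each gene in *ssrp1-2* the share was 16.3% of 9566 positions, a higher share than in any of these sets of internal starts.

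Some of the same positions were used in the other mutants. A 5′ end within 50 nt was listed in *spt16-1* for 40.9% (38.0 to 43.9) of the new starts, and in *hen2-2* for 45.6% (42.6 to 48.6). Of the mirror set, 47.5% (45.05 to 50.1) had one in *spt16-1* and 50.6% (48.1 to 53.1) in *hen2-2*. TIF-clusters of the same gene are not independent, so these intervals are too narrow. Both mutants shared 292 of the new starts, *spt16-1* alone 146, *hen2-2* alone 196 and neither 436. The shares for *spt16-1*, the mutant of the partner subunit of FACT, and for *hen2-2* are taken over the same new starts. Their intervals therefore do not measure the difference between these lists.

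**Figure D4:**
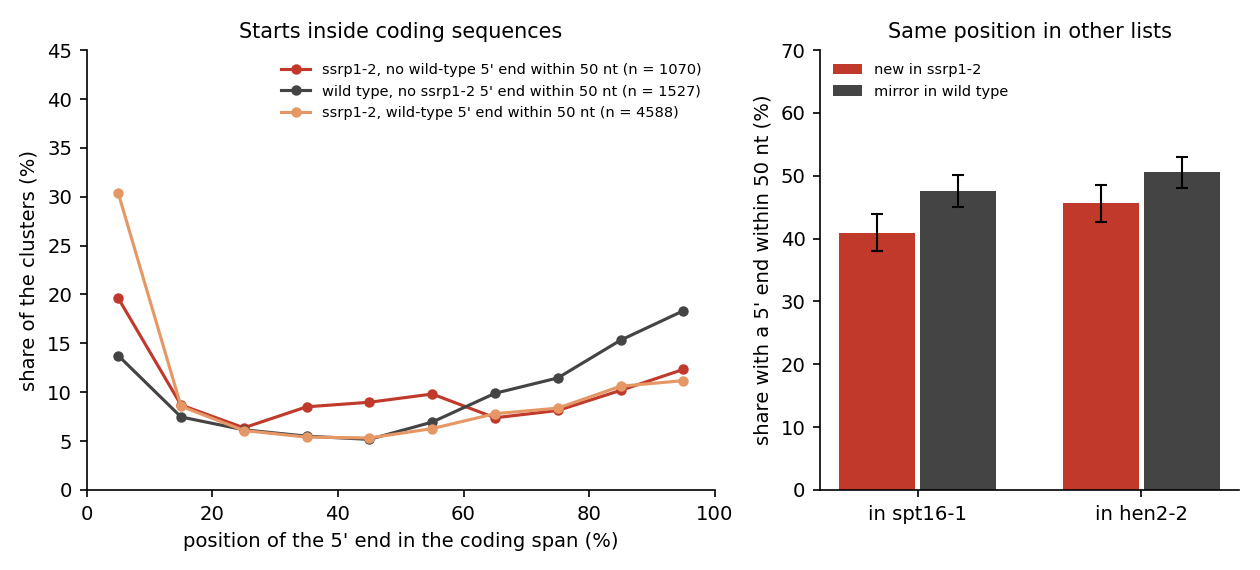
Left, share of internal starts in 10 equal parts of the coding span, for 1070 new *ssrp1-2* starts, 1527 wild-type starts without an *ssrp1-2* 5′ end within 50 nt and 4588 *ssrp1-2* starts shared with wild type; the new starts hold 8.50 to 9.81% in each part between 30 and 60%, above both other sets. Right, share of new and mirror starts with a 5′ end within 50 nt in *spt16-1* and *hen2-2*, with 95% Wilson intervals as bars; the new starts are at 40.9 and 45.6% and the mirror set at 47.5 and 50.6%.

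The levels of the genes with new starts were also compared. Over the 495 of these genes that could be measured on whole-coding-sequence TIF-clusters, the median log2 ratio was 0.21, 71 (14.3%) were 2-fold higher and 21 (4.24%) lower. For the mirror set the median over 558 genes was -0.03, with 33 (5.91%) higher and 50 (8.96%) lower. Over all 4208 genes it was 0.09, with 10.8% higher and 8.44% lower. A new start needs 3 read pairs in *ssrp1-2* and no wild-type 5′ end within 50 nt. Both are easier to meet at genes that are higher in *ssrp1-2*. The mirror set is selected in the opposite way, so no conclusion on levels is drawn from these shares. The part of the gene level in the number of new starts that reach 3 read pairs was not tested. In 96 of the 689 genes no list at 22 °C held an RNA over the whole annotated coding span, so that a start counted as internal may be the usual one there, as at *GRP3S*.

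The sequence at the new start with most read pairs of the gene is shown for 8 of the 12 genes with most read pairs in new starts, because the internal-start counts rest on such positions. Each window covers 30 nt of TAIR10 as read from RefSeq, 5′ to 3′ on the strand of the gene, with 15 upstream bases in lower case and the first 15 bases of the RNA in capitals. The 5′ end is the outer border of a TIF-cluster, so the exact first base can lie some nt downstream.
*KIN2*, chr5:5212183-5212212, plus strand: ggagaagagcaatgtTCTGCTGGACAAGGC
AT3G62550, chr3:23136821-23136850, plus strand: tgctaaggaagttatATGCAACGCAGTTCA
*TGG1*, chr5:9081704-9081733, minus strand: gcagaaagatatagaCGTGATGGACGAGCT
*CAT3*, chr1:7144687-7144716, plus strand: aaaccatgagggataTTCGTGGTTTTGCTG
AT5G40450, chr5:16186752-16186781, minus strand: gagccacaacaagatTTCAATGGTTCAACA
*DIN10*, chr5:6834617-6834646, plus strand: ccaaggaaacgttaaCGATGAGGTTGAGCT
*STP1*, chr1:3780029-3780058, plus strand: tggaggtcacactggTATTGGTCAAGGTTT
AT5G24490, chr5:8367033-8367062, plus strand: gtttttggtttgcagGTGAGATAAACATAG
The border at AT5G24490, with 22 read pairs, is the first base of an annotated exon (position 8367048 of chromosome 5), and its window therefore shows intron letters in lower case. The others lie within exons, and no motif was searched in these windows.

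Reads of *KIN2* and its near-identical neighbour *KIN1* may not always be told apart, as said above. *KIN2* had many internal starts for its level. TIF-clusters that began inside its coding sequence held 40 read pairs in *ssrp1-2*, none in wild type, none in *spt16-1* and 5 in *hen2-2*. Of the 40, 9 began 1 nt after the first coding base and are not counted as new, since wild type has a 5′ end 7 nt before it, and 31 in 5 TIF-clusters were new. Its RNAs over the whole coding sequence had 79 read pairs in *ssrp1-2*, 47 in wild type, 72 in *spt16-1* and 31 in *hen2-2*. The largest internal TIF-cluster, of 15 read pairs, began 232 nt after the first coding base and ended 83 nt before the annotated gene end. In *hen2-2*, 5 read pairs began 230 nt after it. The start at 232 nt lies at 48.8% of the coding span, as distances are counted along the genome with introns included. No in-frame ATG remains downstream of it in this frame of 66 residues.

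AT3G62550, annotated as an adenine nucleotide alpha hydrolase-like protein, had a different pattern. Wild type had a single TIF-cluster of 246 read pairs that began 86 nt before the coding sequence and no internal start. In *ssrp1-2*, 8 read pairs covered the coding sequence and 47 began inside it, 16 of them 18 nt, 7 of them 32 nt and 24 of them 642 nt after the first coding base. In *spt16-1* none covered the coding sequence, 34 read pairs began 21 nt and 31 began 596 nt after the first coding base. *hen2-2* had 274 read pairs over the coding sequence and 17 inside it, 13 of them from 635 nt, which is 7 nt from the strongest new start of *ssrp1-2*. That internal position was therefore not particular to the FACT mutants. Both FACT mutants had few or no RNAs from the start used in wild type, and the gene was 3.74-fold lower (2.78 to 5.11) in *ssrp1-2*. The start at 642 nt lies at 73.0% of the coding span, introns included. From there the first in-frame ATG would leave 42 of 162 residues.

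**Figure D5:**
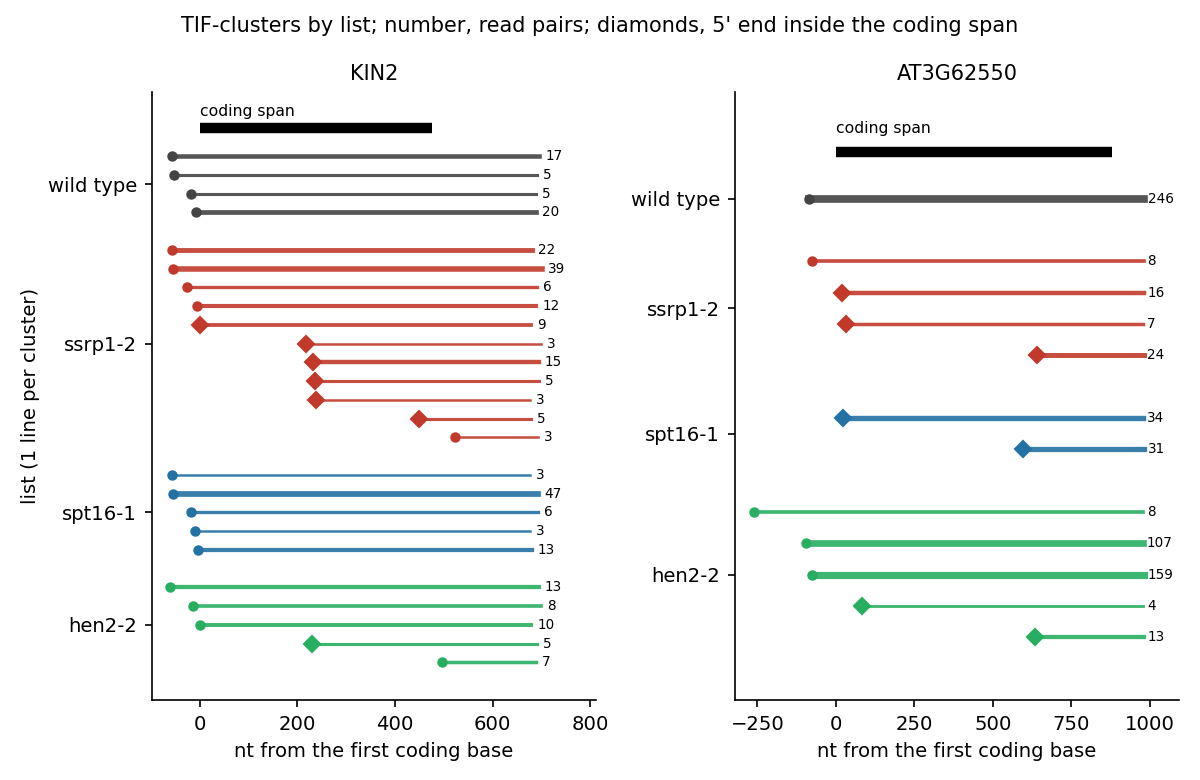
TIF-clusters of *KIN2* and AT3G62550 in the 4 lists at 22 °C, drawn from 5′ to 3′ end by distance in nt from the first coding base, with the coding span as a black bar, read pairs printed at the 3′ end, line width rising with the log of the read pairs and diamonds at 5′ ends inside the coding span. *KIN2* has 40 read pairs from internal starts in *ssrp1-2* and none in wild type, and AT3G62550 has 246 read pairs from upstream of the coding sequence in wild type and 8 in *ssrp1-2*.

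Several genes had many new starts. AT5G40450, an A-kinase anchor-like protein with an annotated frame of 2889 residues, had 11 new TIF-clusters with 67 read pairs in *ssrp1-2*. The gene was also among the 10 highest ratios, at 11.7 (6.11 to 25.2), from 10 read pairs in wild type and 98 in *ssrp1-2*. Its level was 11.9 RPM in wild type, 139 RPM in *ssrp1-2*, 64.9 RPM in *spt16-1* and 41.5 RPM in *hen2-2*. Internal starts there held 95 read pairs in *ssrp1-2*, 7 in wild type, 33 in *spt16-1* and 23 in *hen2-2*, and no list held an RNA over the whole coding sequence. The strongest new start lay 8747 nt after the first coding base along the genome, introns included. *CAT3* had 7 new TIF-clusters with 40 read pairs and *TGG1* 8 with 36, and the levels of both genes were also higher, as given above. *STP1*, a sugar transporter of the plasma membrane, had 9 with 41 read pairs, and 4 of them, the strongest included, began between 2564 and 2598 nt after the first coding base, near the end of the span. It was at 610 RPM in wild type, 1632 RPM in *ssrp1-2*, 2446 RPM in *spt16-1* and 1739 RPM in *hen2-2*.

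The other genes ranked by new starts differed in level. *DIN10*, a raffinose synthase gene induced in the dark, had 8 new TIF-clusters with 34 read pairs, although internal starts in all had 294 read pairs in wild type and 125 in *ssrp1-2*. AT5G20290, a ribosomal protein gene, had 6 with 34 read pairs at a level of 1146 RPM in wild type and 1157 RPM in *ssrp1-2*. For *HOG1*, which encodes S-adenosylhomocysteine hydrolase, 7 new TIF-clusters held 34 read pairs, and the strongest began 40 nt after the first coding base, from which the first in-frame ATG leaves 467 of 485 residues. AT5G24490, *GRP3S* and *DGAT3* had 66, 34 and 29 read pairs in new starts, and their levels were 1.94-, 2.36- and 1.55-fold those of wild type. For *HOG1* the ratio was 1.59, so that AT5G20290 alone of these genes was near equal. The median new start left 38.7% of the residues from its first in-frame ATG, and the median mirror start 22.8%.

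The gene AT5G51200 (*EMB3142*), which encodes a nuclear pore protein and was taken up because the study names it, was rare. In *ssrp1-2*, 4 read pairs covered its coding sequence and 4 and 3 began 4451 and 4454 nt after its first base. In *spt16-1*, 4 read pairs began at 4452 nt, and neither wild type nor *hen2-2* had an internal start. *hen2-2* had 3 read pairs over the coding sequence and wild type had no TIF-cluster at all. AT4G15260, which the study also names, had no TIF-cluster on its strand in any of the 4 lists. The study shows both genes for intragenic TSSs that FACT represses, from TSS-seq, beside TIF-seq read pairs drawn before clustering. It also describes antisense RNAs of AT4G15260 in *spt16-1*. The lists used here leave out TIF-clusters under 3 read pairs, so these counts and the study's display are unlike measures.

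Of the mirror set, the 5 genes with most read pairs are named. *AGT*, an aminotransferase of photorespiration, had 18 wild-type TIF-clusters, the most of any gene, at internal positions without an *ssrp1-2* 5′ end within 50 nt. Its internal starts held 172 read pairs in wild type, 24 in *ssrp1-2*, 91 in *spt16-1* and 69 in *hen2-2*, at gene levels of 1985 RPM in wild type and 1926 RPM in *ssrp1-2*. The gene level was thus near equal, and wild type held the most internal read pairs of the lists. These genes were picked for wild-type internal starts that *ssrp1-2* lacks. Fewer internal starts in *ssrp1-2* are favoured by that choice, and no conclusion is drawn from them. AT3G60750, a transketolase of the Calvin cycle, had 98 such read pairs, AT4G28080, annotated as a tetratricopeptide repeat protein, had 80, *CAT2* (AT4G35090) had 78 and *GLDP1* had 74. At *GLDP1* no internal start was listed in *ssrp1-2*, against 74 read pairs in wild type, 91 in *spt16-1* and 136 in *hen2-2*, and the whole gene was 5.47-fold lower (4.74 to 6.34).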

How the data were processed

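The deposited values are counts of read pairs per TIF-cluster, as the authors made them: reads were trimmed with cutadapt, aligned to TAIR10 with STAR 2.6.1c, stripped of PCR copies by molecular identifiers with UMI-tools, merged over the 2 libraries of a genotype and joined into TIF-clusters. Per the study's methods, a TIF-cluster needed 3 or more read pairs, a 3′ end away from A-rich genomic stretches and a TSS also seen by TSS-seq, so starts without TSS-seq support are not listed. The values are raw counts, and a filter that acted differently between lists would move gene levels.

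TIF-clusters were placed on RefSeq models of TAIR10.1, whose 5 nuclear chromosomes have the lengths of TAIR10. Of 27444 coding genes, the 26475 that overlap no other coding gene on their strand were kept, and a TIF-cluster counted for a gene when it overlapped that gene alone. In *ssrp1-2*, 209 TIF-clusters met no gene and 178 met several. Read pairs were summed per gene and divided by the list total. Ratios carry exact conditional 95% intervals and shares Wilson intervals, all for counting error only. Differences of at least 2-fold were counted over genes in both lists with at least 40 read pairs over both. With 1 pooled list per genotype there is no test. A start was internal when its 5′ end lay after the first and up to the last coding base over all isoforms. Distances from the coding start and lengths of TIF-clusters are counted along the genome, introns included.

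Named genes were *SSRP1*, *SPT16*, the 2 genes the study names, the 10 highest and 10 lowest ratios among genes with at least 100 read pairs over both lists, the 5 with most read pairs in a single list on each side, the 12 with most read pairs in new internal starts and 5 of the mirror set, and members of gene lists, namely up to 4 with most read pairs and all past 2-fold. Genes that stood apart from all 3 other lists were added. Members and lists were chosen with earlier results of these data known. Alternatives were scaling by the median gene, other minimums, whole-coding-sequence TIF-clusters, equal depth, other gene sets and other distances. The functions were tested on simulated data. Python 3.11.15, numpy 2.4.6, scipy 1.17.1 and matplotlib 3.10.9 were used. TSS-seq samples and the lists at 4 °C are not analysed here.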

Additional observations from a re-analysis of the deposited data

How the results depend on the processing

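No paired analysis was possible because each deposited list pools both libraries of a genotype, and for the same reason no library could be left out. The count of genes at least 2-fold higher and lower, 465 and 408, became 800 and 708 with at least 20 read pairs, 156 and 171 with at least 100, and 1252 and 991 with no minimum. Without the largest TIF-cluster of each gene, an alternative chosen after seeing the data, 306 genes were higher and 331 lower among 2773, and 173 of the 211 higher and 174 of the 206 lower genes still measured kept their side of the limit. Set against all 3 other lists, also chosen after seeing the data, the counts were 31 and 135. Scaling by the median gene (a shift of 0.07 on the log2 scale) gave 402 higher and 461 lower, so the larger direction depends on the scaling, which also took *AOC2* and *ESP* under the limit. The other alternatives stayed within 1.5 times of the main counts. New internal starts went from 1070 at 689 genes to 330 at 258 with at least 5 read pairs and to 39 at 36 with at least 10, and the mirror set from 1527 at 806 to 614 at 402 and to 94 at 81. Distances of 20 and 100 nt gave 1510 and 847 new starts. Over 53 of the named genes, namely the 10 highest, the 10 lowest and the list members past 2-fold, no ratio changed sign under an alternative that could measure it. These genes were picked for large ratios in the same counts, so a stable sign was nearly fixed in advance. Without the largest TIF-clusters, 23 of the ratios left their main counting interval and 16 stayed in it. Over whole-coding-sequence TIF-clusters, 9 left it and 37 stayed. A ratio near 1, such as that of *LHCB6*, turns with the scaling. Both lists are shallow for most genes, with a median of 6 read pairs per TIF-cluster, and pooled lists leave the spread between seedlings unknown.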

Other observations

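Because *CAT2* (AT4G35090), *AGT* and *GLDP1* led the mirror set, the genes of photorespiration, the pathway that recovers carbon from the oxygenase reaction of Rubisco, were listed after these values were seen, and the list supports nothing by itself. Of 13 genes, 12 could be measured, none was 2-fold higher and 4 (33.3%) were lower, against 10.3% and 9.06% of all genes measured, and the median log2 ratio of *ssrp1-2* to wild type was -0.62, against 0.07 over all genes measured. *GLDP1*, the P-protein of glycine decarboxylase, was at 1683 RPM in wild type, 308 RPM in *ssrp1-2*, 868 RPM in *spt16-1* and 512 RPM in *hen2-2*. *CAT2*, the main leaf catalase, was at 2270, 725, 1757 and 1530 RPM in the same order. *CAT2* was thus lowest in *ssrp1-2*, the list in which its relative *CAT3* was highest. AT1G80380, annotated as a P-loop nucleoside triphosphate hydrolase, was 2.25-fold lower (1.42 to 3.68), and *GLDP2* was 2.02-fold lower (1.205 to 3.48) but had a log2 ratio of -0.22 over whole-coding-sequence TIF-clusters. Of the others, *GOX1*, *GOX2* and *HPR* had log2 ratios of -0.71, -0.76 and -0.53, and *SHM1* had 0.29. *GLU1*, a ferredoxin-dependent glutamate synthase that refixes ammonia from this pathway, was outside the list and was at 295 RPM in wild type, 61.0 RPM in *ssrp1-2*, 218 RPM in *spt16-1* and 267 RPM in *hen2-2*.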
